A study of Homo sapiens with 6 samples.

Results

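The footprints of 9 genes were followed: the CCN genes CCN1, CCN2 and CCN3, the matricellular genes THBS1, TGFBI, POSTN, TNC and SPARC, and the TGF-beta target PMEPA1. They were taken by Ensembl gene ID, cut at the first dot, from the 62492 rows of the deposited table, and all 9 had a row. The symbols come with that list of IDs, since the table holds IDs only. Ribosome footprints reached the count filter for 8 of the 9, while PMEPA1 had no count in any library. The members were chosen by ID with earlier results of these libraries in view, the footprint difference between the hairpins among them. The differences between hairpins are therefore a description of these 9 genes. An adjusted p below places a gene within the fit of all features and is not independent evidence for the list.

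The cells were WPMY-1, a human myofibroblast line made from prostate stroma and immortalised with a viral antigen, and every library came from this line. The sh61A group (3 libraries, labelled TRMT61A knockdown) carried a short hairpin RNA against TRMT61A, the catalytic subunit of the enzyme that places 1-methyladenosine in tRNA. The shcontrol group (3 libraries, labelled TRMT61A wildtype) carried a control hairpin. The labels do not say how many hairpin sequences, clones or separate cultures stand behind a group, so a p-value reflects only how the libraries at hand vary, possibly for technical reasons. The level of TRMT61A itself and the markers of the cell line were not analysed here, because the remaining IDs could not be paired with symbols. The labels record no change in TGF-beta supply, so the word target in the name of the list was not checked against these data.

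Matricellular proteins are secreted into the matrix without forming its scaffold. They bind integrins, proteoglycans and growth factors and so tune adhesion and signalling. In stromal fibroblasts many of them are switched on by TGF-beta through SMAD transcription factors, and CCN1 and CCN2 are also textbook targets of the YAP and TEAD factors of the Hippo pathway. In ribosome profiling, lysates are digested with RNase and the short mRNA stretches covered by ribosomes are sequenced. A gene's footprint count thus follows both its mRNA level and how densely ribosomes sit on that mRNA, and the split between them was not analysed here.

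The promoter of CCN2 is shown because it is known for TEAD and SMAD sites, and those of THBS1, TGFBI and SPARC are given for comparison with it. THBS1 passed the test between hairpins as CCN2 did, and TGFBI and SPARC did not. These windows and the motifs searched were chosen after the values had been seen. Each run below holds the 250 bases before the RefSeq start site (GRCh38.p14), read 5′ to 3′ on the gene's own strand. Capitals mark the TEAD core GGAATG, or CATTCC where it lies on the other strand. RefSeq windows were matched by symbol for 7 of the 9 genes, with 4 windows for PMEPA1. CCN1 and CCN3 had no window, so their promoters were not searched.
CCN2, chr6:131951373-131951622, minus strand: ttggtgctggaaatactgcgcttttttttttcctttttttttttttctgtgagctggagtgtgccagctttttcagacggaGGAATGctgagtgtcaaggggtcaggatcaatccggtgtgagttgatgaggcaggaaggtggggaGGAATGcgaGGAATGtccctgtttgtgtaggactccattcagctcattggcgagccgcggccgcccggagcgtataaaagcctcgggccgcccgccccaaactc
THBS1, chr15:39580829-39581078, plus strand: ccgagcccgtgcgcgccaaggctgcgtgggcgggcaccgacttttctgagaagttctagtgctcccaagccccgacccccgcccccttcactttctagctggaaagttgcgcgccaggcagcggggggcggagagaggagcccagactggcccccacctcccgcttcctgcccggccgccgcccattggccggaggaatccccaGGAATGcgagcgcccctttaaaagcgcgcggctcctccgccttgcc
TGFBI, chr5:136028738-136028987, plus strand: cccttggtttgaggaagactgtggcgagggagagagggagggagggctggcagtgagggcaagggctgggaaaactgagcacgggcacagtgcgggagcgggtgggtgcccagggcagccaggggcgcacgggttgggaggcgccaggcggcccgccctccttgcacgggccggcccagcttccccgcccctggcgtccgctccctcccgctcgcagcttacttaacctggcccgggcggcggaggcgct
SPARC, chr5:151686916-151687165, minus strand: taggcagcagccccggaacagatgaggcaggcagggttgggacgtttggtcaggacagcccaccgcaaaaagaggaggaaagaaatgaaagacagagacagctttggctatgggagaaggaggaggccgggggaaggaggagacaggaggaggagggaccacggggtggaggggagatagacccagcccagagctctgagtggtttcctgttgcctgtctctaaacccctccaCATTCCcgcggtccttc

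The CCN2 window holds 3 matches to GGAATG, which begin 169, 104 and 95 bases before the start site. Of 35116 RefSeq windows of the same length, 11.9% held at least 1 match on either strand and 0.0826% held 3 or more. The cutoff of 3 is the count of CCN2 itself, a gene shown for its known sites, so this share is no test of enrichment. THBS1 and SPARC had 1 match each, 46 and 17 bases before the start, and TGFBI, TNC, POSTN and PMEPA1 had none in these windows. The SMAD core CAGAC, or GTCTG on the other strand, was found once each in the windows of CCN2, THBS1, TNC and POSTN and in 2 of the 4 PMEPA1 windows, and 38% of all windows held it. The AP-1 site TGANTCA, which reads as the same pattern on both strands, was found once, in POSTN, against 6.57% of all windows. Matches to different motifs did not share letters in these windows. A match is a description of the sequence only.

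The libraries differed in depth. Total counts ran from 12704354 to 17752247 in sh61A and from 6771455 to 8008896 in shcontrol. Every sh61A library was thus deeper than every shcontrol library, so depth and hairpin cannot be told apart. The TMM factors were 0.858, 0.890 and 0.974 in sh61A libraries 1 to 3 and 0.923, 1.21 and 1.21 in shcontrol libraries 1 to 3. The 9 genes together took 0.321% to 0.378% of the counts in sh61A libraries and 0.301% to 0.422% in shcontrol libraries, ranges that overlap. Levels are given below as CPM, counts scaled to a common library total with edgeR's TMM factor. They are not divided by coding length, so levels of different genes are not set against each other.

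Among the CCN genes the sh61A libraries had more footprints on CCN3 and CCN2, while CCN1 lay within the spread of the libraries. CCN3, also called NOV, (ENSG00000136999.5_4) encodes a secreted CCN protein that binds integrins. Its levels were 61.3, 40.3 and 37.9 CPM in sh61A libraries 1 to 3 and 8.0, 5.15 and 6.69 CPM in shcontrol libraries 1 to 3. The groups did not overlap, and the lowest sh61A library stood well above the highest shcontrol library. In counts these were 933, 476 and 468 in sh61A and 59, 42 and 59 in shcontrol, so CCN3 was seen often enough in each library to be measured. The mean was 46.5 ± 12.9 CPM in sh61A and 6.61 ± 1.43 CPM in shcontrol (SD, n = 3 each). The log2 fold change was 2.81 ± 0.33 (SE), a 7.04-fold rise, with an adjusted p of 0.0022 in edgeR's quasi-likelihood test. Of all tested features, 0.446% had a higher log2 fold change. In these bulk lysates, more cells that express a gene and more footprints in each cell cannot be told apart.

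CCN2, or CTGF (ENSG00000118523.6_5), encodes connective tissue growth factor, a matrix-bound mediator of fibroblast activation downstream of TGF-beta. It had 159, 138 and 135 CPM in sh61A libraries 1 to 3, against 63.6, 56.6 and 72.5 CPM in shcontrol libraries 1 to 3. The groups did not overlap, and the libraries of each group lay close together. Its mean was 144 ± 13 CPM in sh61A and 64.2 ± 7.9 CPM in shcontrol (SD, n = 3 each). This was a 2.24-fold rise, 1.16 ± 0.22 (SE) on the log2 scale, with an adjusted p of 0.0158 in edgeR. The call was lost when any library other than sh61A library 3 was left out. The adjusted p was then 0.0591 and 0.0685 without sh61A libraries 1 and 2, and 0.0528, 0.103 and 0.0604 without shcontrol libraries 1, 2 and 3, with log2 fold changes between 1.08 and 1.26 over all 6 such fits. RefSeq places the lncRNA gene CCN2-AS1 over CCN2, and whether the authors counted by strand is not given in the sources used here.

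CCN1, or CYR61 (ENSG00000142871.17_5), encodes an immediate early matricellular protein that acts through integrins and heparan sulphate. Its levels were 377, 414 and 487 CPM in sh61A libraries and 368, 278 and 426 CPM in shcontrol libraries. The groups overlapped, since shcontrol library 3 exceeded sh61A libraries 1 and 2. CCN1 averaged 426 ± 56 CPM in sh61A and 357 ± 75 CPM in shcontrol (SD, n = 3 each). The log2 value of the change was 0.25 with a 95% interval of -0.25 to 0.76, and it did not pass the test (adjusted p = 0.688 in edgeR). The interval includes 0, and these libraries do not exclude a change of a size inside it.

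The makeup of the joint CCN footprints, which needs no scaling between libraries, differed between the groups. CCN1 made up 63.2%, 69.9% and 73.8% of the joint CCN1, CCN2 and CCN3 counts in sh61A libraries 1 to 3, against 83.7%, 81.8% and 84.3% in shcontrol libraries 1 to 3. CCN2 made up 23.5% ± 3.0 in sh61A and 15.2% ± 1.3 in shcontrol, and CCN3 made up 7.61% ± 2.37 in sh61A and 1.55% ± 0.25 in shcontrol (SD, n = 3 each). No share overlapped between the groups. The 3 shares are parts of the same total, so they are not separate results, and CCN1 itself overlapped in CPM. How often such shares stand apart over all features was not computed. With TMM, 24.8% of all tested features did not overlap in CPM, so nothing is read from this. Wilson 95% intervals of the CCN3 share were 9.67% to 10.9%, 6.25% to 7.43% and 5.26% to 6.27% in sh61A libraries 1 to 3, and 1.41% to 2.34%, 1.12% to 2.04% and 1.03% to 1.71% in shcontrol libraries 1 to 3. These intervals cover counting error only. Whether PCR copies were removed is not given in the sources used here, and any left are counted as separate reads. For each CCN3 count there were 2.58, 3.41 and 3.57 CCN2 counts in sh61A libraries, against 7.95, 11 and 10.8 in shcontrol libraries. This ratio did not overlap between the groups either, and sh61A library 1 held the largest share of both genes. The difference between the fold changes of CCN genes was not tested.

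**Figure D1:**
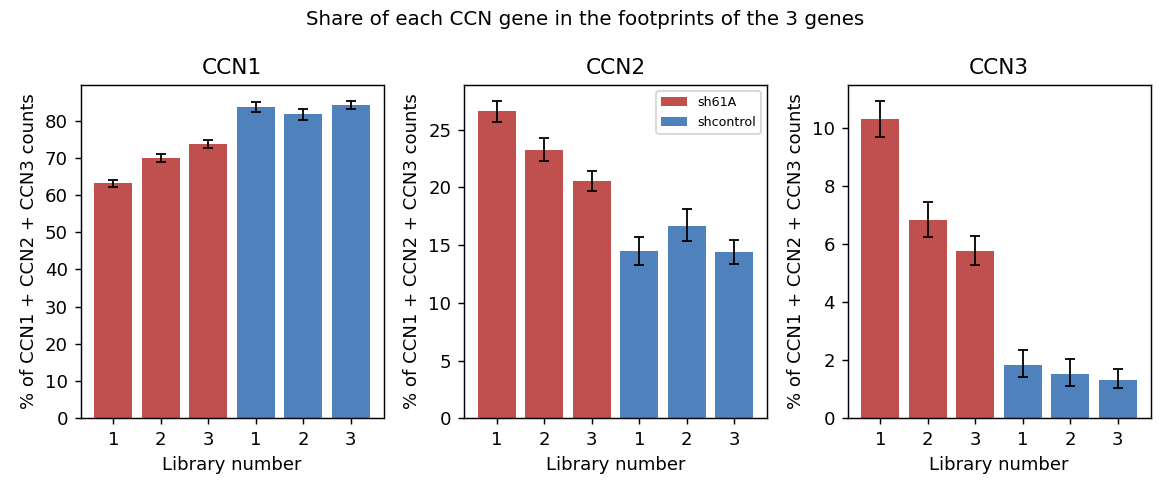
Share of CCN1, CCN2 and CCN3 in the joint footprint counts of the 3 genes (y axis, percent, a separate scale in each panel) in each sh61A and shcontrol library (x axis). Bars are single libraries and error bars are Wilson 95% intervals. CCN1 takes 63.2% to 73.8% in sh61A and 81.8% to 84.3% in shcontrol, and the CCN3 share runs from 5.74% to 10.3% in sh61A and from 1.33% to 1.82% in shcontrol.

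THBS1 (ENSG00000137801.11_5) encodes thrombospondin-1, which binds CD36 and CD47 and can release TGF-beta from its latent complex. It had 212, 242 and 209 CPM in sh61A libraries 1 to 3 and 65.4, 138 and 104 CPM in shcontrol libraries 1 to 3. The groups did not overlap, and the shcontrol libraries were spread more widely, with a coefficient of variation of 8.33% in sh61A and 35.4% in shcontrol. The mean was 221 ± 18 CPM in sh61A and 102 ± 36 CPM in shcontrol (SD, n = 3 each). The log2 fold change was 1.11 ± 0.27 (SE), a 2.16-fold rise, with an adjusted p of 0.0488 in edgeR, just under the threshold of 0.05. Leaving out any single library ended the call, with adjusted p of 0.103, 0.166 and 0.107 without sh61A libraries 1, 2 and 3 and 0.114, 0.0761 and 0.166 without shcontrol libraries 1, 2 and 3. So did the replicate number as a block, at 0.0558, and library size in place of TMM, at 0.261, while the lowest log2 fold change over these settings was 0.77. RefSeq places the intronic lncRNA gene THBS1-IT1 and the end of the coding gene FSIP1 over THBS1.

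POSTN and TGFBI encode periostin and the TGF-beta-induced protein, related integrin-binding proteins built of fasciclin domains. POSTN (ENSG00000133110.15_6) had 60.1, 50.3 and 63.4 CPM in sh61A libraries and 21.4, 36.8 and 37.4 CPM in shcontrol libraries. Its groups did not overlap with TMM, but by library size they did, since sh61A library 2 had 44.64 CPM and shcontrol library 3 had 45.02 CPM. It missed the adjusted threshold, with a log2 fold change of 0.86 ± 0.27 (SE, 95% interval 0.26 to 1.46) and an adjusted p of 0.123 in edgeR. DESeq2 gave it an adjusted p of 0.0437. TGFBI (ENSG00000120708.17_7) had 1254, 1157 and 1220 CPM in sh61A libraries and 1098, 1196 and 1368 CPM in shcontrol libraries. Every sh61A value lay inside the shcontrol range, the log2 fold change was -0.01 with a 95% interval of -0.48 to 0.46, and the adjusted p was 0.992 in edgeR. These are values for proteins of the same family, and the difference between their fold changes was not tested.

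TNC (ENSG00000041982.16_6) encodes tenascin-C, a large glycoprotein of remodelling matrix. It had 227, 208 and 238 CPM in sh61A libraries 1 to 3 and 94.2, 220 and 259 CPM in shcontrol libraries 1 to 3. The groups overlapped, and shcontrol library 1 lay below each of the other libraries. Its log2 fold change was 0.23 with a 95% interval of -0.46 to 0.92 (adjusted p = 0.819 in edgeR), and without shcontrol library 1 it was -0.10. SPARC (ENSG00000113140.11_7), a collagen-binding glycoprotein also called osteonectin, had 1700, 1365 and 1500 CPM in sh61A libraries and 1555, 1340 and 1233 CPM in shcontrol libraries. The groups overlapped, and the log2 fold change was 0.15 with a 95% interval of -0.34 to 0.63 (adjusted p = 0.844 in edgeR).

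PMEPA1 (ENSG00000124225.16_7) encodes a membrane protein that TGF-beta induces and that restrains SMAD signalling. It had 0 counts in all 3 sh61A libraries and in all 3 shcontrol libraries. With 0 observed, up to 3 counts remain possible, or at most 0.236 CPM in any sh61A library and at most 0.443 CPM in any shcontrol library by library size, so no fold change is given. No footprints were counted on this ID in either group. The bound holds only if reads of this gene could be assigned to this ID, which was not tested. RefSeq places the lncRNA gene NKILA over PMEPA1, and whether the authors counted by strand is not given in the sources used here.

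**Figure D2:**
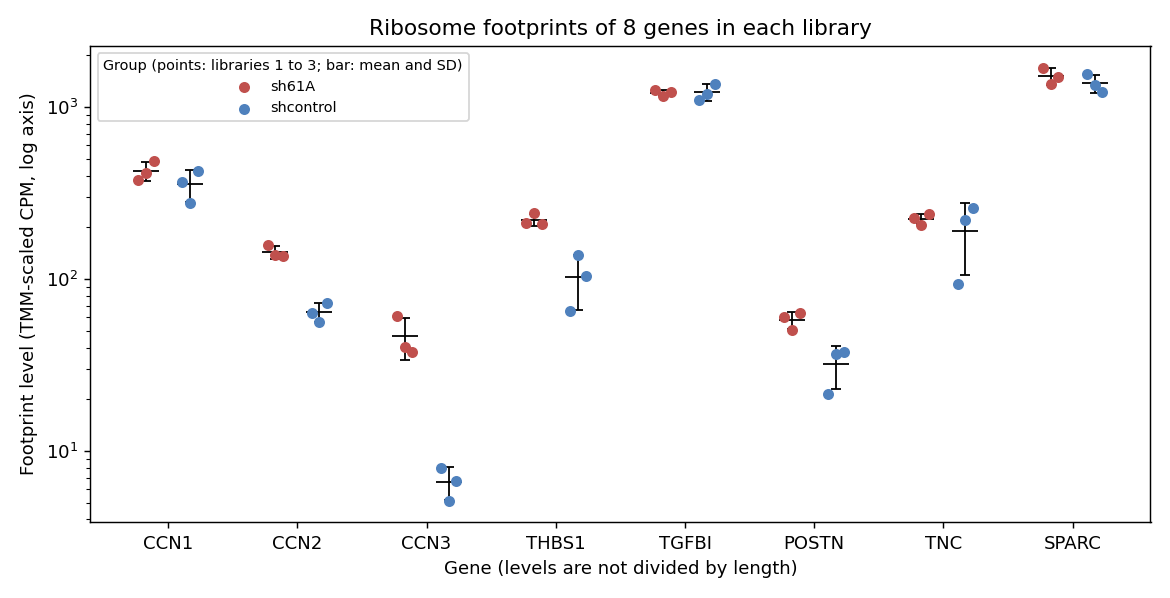
Footprint level of the 8 genes with counts (y axis, TMM-scaled CPM on a log axis) in sh61A and shcontrol libraries (x axis, by gene). Points are libraries and bars are the mean and SD of 3 libraries. With TMM the groups stand apart for CCN2, CCN3, THBS1 and POSTN (by library size POSTN overlaps) and they overlap for CCN1, TGFBI, TNC and SPARC, where shcontrol library 1 is low for TNC at 94.2 CPM.

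Of the 8 genes tested, 3 rose in sh61A (CCN2, CCN3 and THBS1), 0 fell and 5 did not pass in edgeR. At an unadjusted p under 0.05 in edgeR, 4 of the 8 were higher and 0 lower, where 16.3% of all tested features passed in either direction and 7.95% were higher in sh61A. DESeq2 called 4 higher and 0 lower, POSTN being the fourth, where it called 11.2% of the 7134 features with a defined adjusted p in either direction and 5.45% as higher in sh61A. Over all 11653 tested features, 1.48% were called higher and 1.64% lower, 3.12% in all. With TMM the groups did not overlap in 4 of the 8, all with sh61A higher, against 24.8% of all tested features and 12.2% with sh61A higher. By library size this was so in 3 of the 8, without POSTN, against 25.2% of all tested features. The median log2 fold change of the 8 was 0.56, against -0.0047 over all tested features. Since the list was chosen with results of this comparison known, nothing is read from these counts. With library size in place of TMM, the calls over all features became 63 higher and 334 lower, against 173 higher and 191 lower with TMM, and the median of all features moved to -0.30. CCN3 was then the only one of the 8 past the threshold, at an adjusted p of 0.00621 in edgeR, where 3.41% of all tested features passed in either direction. CCN2 had an adjusted p of 0.0916 there and a log2 fold change of 0.86, which is 1.16 above the median of all features, and CCN1, TNC and SPARC turned to -0.03, -0.12 and -0.14, all above that median.

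**Figure D3:**
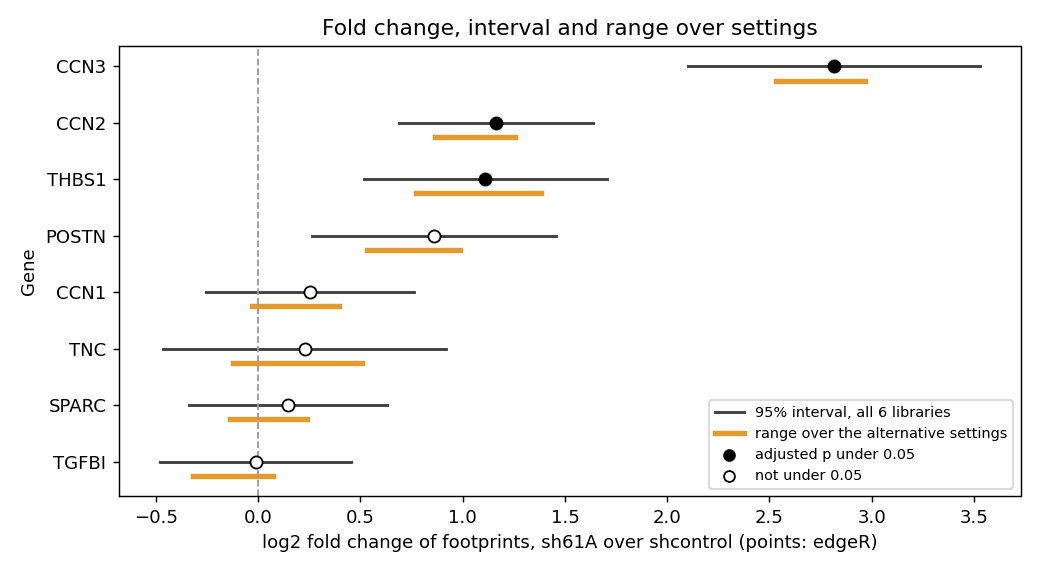
Log2 fold change of footprints, sh61A over shcontrol (x axis), for the 8 genes tested (y axis). Points are the edgeR values, dark lines their 95% intervals and orange lines the range over the alternative settings, and filled points passed an adjusted p of 0.05. CCN3 stands at 2.81, CCN2 and THBS1 at 1.16 and 1.11, and the intervals of CCN1, TNC, SPARC and TGFBI include 0.

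**Figure D4:**
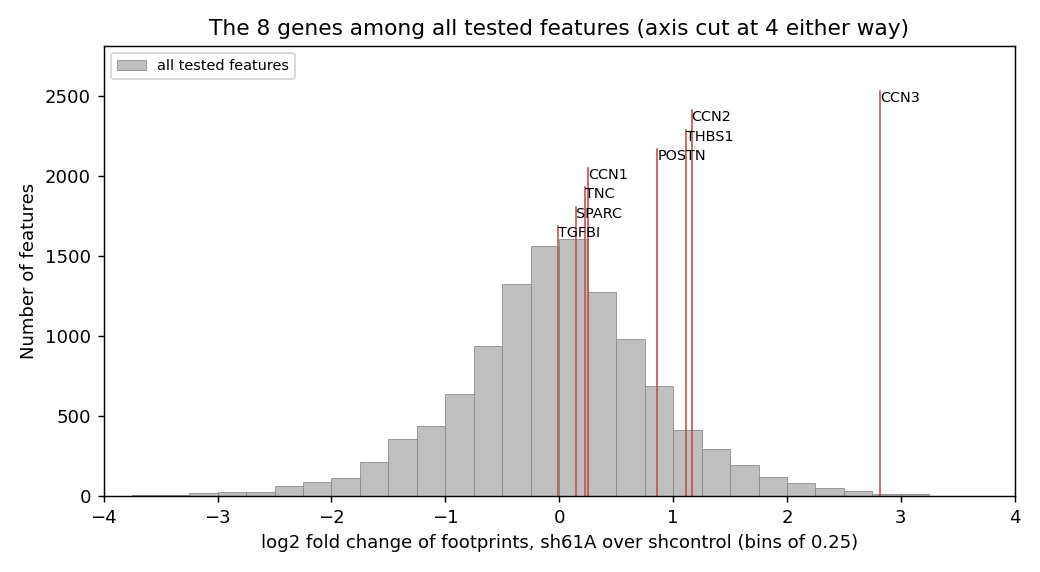
Number of tested features (y axis) in bins of 0.25 of the log2 fold change, sh61A over shcontrol (x axis), with the 8 genes marked by red lines whose height has no meaning. The axis leaves out 60 features beyond 4 in either direction. CCN3 lies far in the upper tail, CCN2, THBS1 and POSTN on the upper flank, and CCN1, TNC, SPARC and TGFBI near the centre.

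Set against SPARC in the same library, which removes the scaling, the same genes stood apart. CCN3 had 0.0361, 0.0296 and 0.0253 counts per SPARC count in sh61A libraries 1 to 3 and 0.00515, 0.00384 and 0.00543 in shcontrol libraries 1 to 3, a ratio of geometric means of 6.31. CCN2 had 0.0933, 0.101 and 0.0903 in sh61A and 0.0409, 0.0423 and 0.0588 in shcontrol, a ratio of 2.03. THBS1 averaged 0.147 ± 0.027 counts per SPARC count in sh61A and 0.0763 ± 0.0311 in shcontrol, and POSTN 0.0382 ± 0.0037 in sh61A and 0.0239 ± 0.0089 in shcontrol (SD, n = 3 each). These 4 did not overlap between the groups, while CCN1, TNC and TGFBI did. The share of all tested features that stand apart per SPARC count was not computed. With TMM it was 24.8%, so nothing is read from this count. The separation depended in part on the gene used as divisor. Per CCN1 count THBS1 and POSTN overlapped between the groups, and per TNC count CCN2 did, while per TGFBI count all 4 stood apart. A ratio of this kind shows unequal change and not that SPARC was constant.

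**Figure D5:**
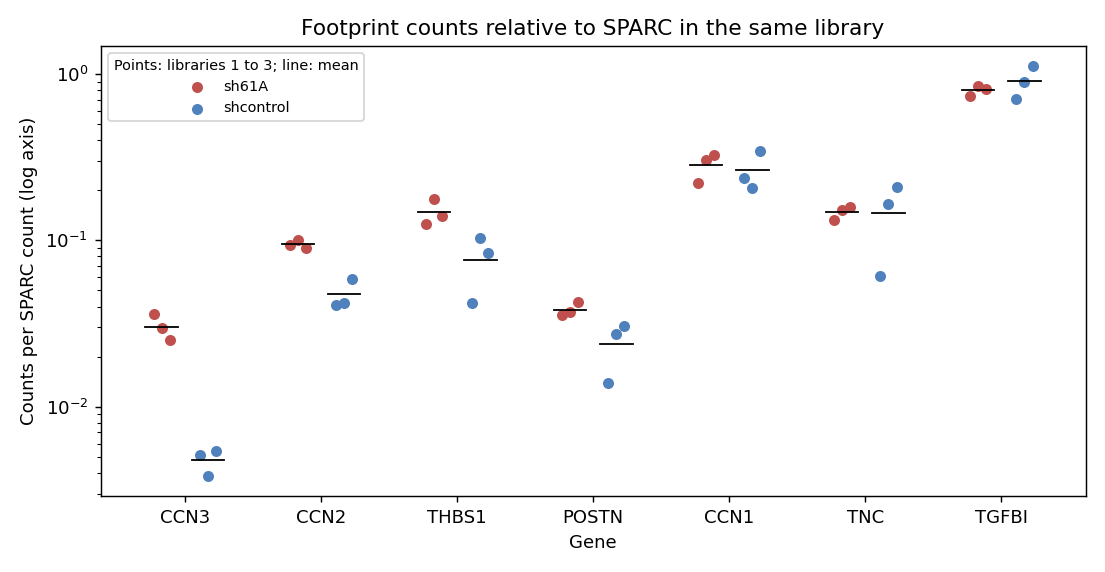
Footprint counts of 7 genes per SPARC count of the same library (y axis, log axis) in sh61A and shcontrol libraries (x axis, by gene). Points are libraries and lines are means of 3 libraries. CCN3, CCN2, THBS1 and POSTN are higher in every sh61A library than in any shcontrol library, and CCN1, TNC and TGFBI overlap.

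Over the 6 libraries, the pattern most like that of CCN2 among the 8 genes was that of CCN3 (Pearson's r of log2 CPM 0.989), and THBS1 was most like POSTN (r = 0.936). The difference between the groups is part of this likeness, and the 6 points share library and depth. Within the groups, shcontrol library 1 lay below its group's mean by 0.57 for THBS1, 0.51 for POSTN and 0.89 for TNC on the log2 scale, and above it by 0.26 for CCN3 and 0.18 for SPARC. Without that library the log2 fold change of THBS1 was 0.87 and that of POSTN 0.64. The part of this library in the results of THBS1 and POSTN was not tested beyond these values.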

How the data were processed

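Ribosome footprints of 25 to 35 nt were profiled in 3 sh61A and 3 shcontrol libraries, per the labels' protocols. The values are raw read counts per Ensembl ID as deposited. The submitters' processing notes name fastp, Bowtie 1.3.1 and hg38. The counting tool, its annotation and its use of strand are each not given in the sources used here, and the form of the IDs resembles an annotation carried to an older build. Control columns named for a vector were matched to shcontrol by assay and number. The 6 columns named for RNA match none of the samples described and were not used, so no translational efficiency was computed.

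The test was that of edgeR 4.0.16 under R 4.3.3 (filterByExpr, TMM, two-sided quasi-likelihood F-test, Benjamini-Hochberg over 11653 features, threshold 0.05). The same fit was also run on counts simulated from these data, which checks the code and not the results of these genes. The standard error is the log2 fold change over the square root of F. Alternatives were DESeq2 1.42.0, limma 3.58.1 (voom), other scalings and filters, a replicate block and each library left out. Members and lists were chosen with earlier results of these data known. The rule for named genes took every member. The lists of related genes and the levels per coding length were not analysed here, because 0 RefSeq rows (GRCh38.p14) carry an Ensembl ID and no coding lengths were at hand. Same-numbered libraries did not deviate together (correlations -0.0017, -0.021 and 0.060).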

Additional observations from a re-analysis of the deposited data

How the results depend on the processing

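Of the 118 values of the 8 genes under the alternatives, 95 kept direction and side of the threshold, 14 lost the call, 1 gained it and 8 changed sign. The 14 lost calls were of CCN2 and THBS1, and CCN3 passed under all 15 of its alternatives, with log2 fold changes of 2.53 to 2.97. The gain was POSTN in DESeq2. Sign changes befell genes near 0. With library size alone CCN1 was at -0.028, TNC at -0.12 and SPARC at -0.14. TGFBI was at 0.0044 without a count filter and at 0.00081 with at least 10 CPM in 3 libraries, and TGFBI ran from -0.088 to 0.075 and TNC from -0.10 to 0.51 with 1 library left out. The members called higher numbered 1 with library size alone and 1 to 2 with 1 library left out, against 3. The share of all tested features called in either direction was 3.41% and 0.371% to 1.44% in these settings, against 3.12%. Over all features there were 799 calls in DESeq2 (389 higher, 410 lower), 735 without a count filter (358 and 377), 602 with at least 10 CPM in 3 libraries (287 and 315), 208 with the replicate block (99 and 109), 63 higher and 334 lower with library size alone, and 47 to 171 with 1 library left out (22 to 86 higher, 25 to 85 lower). The block, for which nothing shows that numbers pair the libraries, left CCN2 at an adjusted p of 0.0423 and THBS1 at 0.0558 in edgeR and changed no other call of the 8. SPARC and TGFBI had no value without the 50 most abundant features, being among them. The cause of these changes was not tested, except that fits without a library have fewer samples. Levels per coding length were not run. PMEPA1 is limited by its 0 counts.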
